A study of Mus musculus with 2 samples.

Results

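The nuclear oxidative phosphorylation genes are the genes of the nuclear genome whose proteins are built into the respiratory chain and the ATP synthase of mitochondria. They were chosen by name from the gene list of 2 scRNA-Seq libraries of mouse periosteal cells. A symbol was taken if it began with Ndufa, Ndufb, Ndufc, Ndufs, Ndufv, Uqcr, Cox4 to Cox8, or Atp5, or if it was Sdha, Sdhb, Sdhc, or Sdhd, and assembly factors named Ndufaf with a number were left out. This gave 86 of 32288 features. Complexes were assigned by gene name alone, with 39 genes of complex I, 4 of complex II, 8 of complex III, 18 of complex IV, and 17 of complex V. The choice used no measured value. The annotation gave 85 as protein coding and Ndufb1-ps as a noncoding RNA gene. Cox7b2 had 0 UMIs in the cells kept, Cox8c had 1 and 8, and the other 84 passed the filter on low counts and were tested among 14064 genes.

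Both libraries came from periosteum peeled off the femurs and tibias of WT C57BL6 mice 4 weeks old, with no treatment or transgene named, and were replicates 1 and 2 of this single group. The cells had been digested with collagenase and sorted as negative for CD45, CD31, Ter119, and the dead-cell dye DAPI, to take out blood, endothelial, erythroid, and dead cells. The sources used here do not say how many mice stand behind a library, so p-values measure only the spread between 2 libraries. All comparisons here are therefore between cell types within the same libraries.

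Oxidative phosphorylation makes ATP by passing electrons along 4 membrane complexes to oxygen. Complex I takes electrons from NADH and complex II from succinate, complex III hands them to cytochrome c, and complex IV, the cytochrome c oxidase, reduces oxygen. The proton gradient that results drives complex V, the ATP synthase. The mitochondrial genome encodes 13 core subunits, and all other subunits come from nuclear genes. Several subunits of complex IV have a second, tissue-restricted gene, of which Cox6a2, Cox7a1, and Cox8b are best known from heart and skeletal muscle.

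In the libraries, 6276 of 9932 and 2893 of 3659 barcodes had at least 500 genes, at least 500 UMIs, and at most 10% mitochondrial UMIs. The kept cells held 92058900 and 30745900 UMIs, with a median of 8164 and 6279 per cell. Among kept barcodes, 7 occurred in both libraries. Cells were clustered without the members and the mitochondrial genes, and a cluster was named from fixed marker lists. Despite the sort, 7602 of the 9169 cells fell in clusters with blood markers and 1567 in stromal clusters, and Ptprc, which encodes CD45, had a UMI in 2980 and 779 cells. Tested were the 9 classes that had 10 or more cells in both libraries: P-SSC-like (20 and 294 cells in libraries 1 and 2), Lepr+ stromal-like (97 and 51), osteoblast-like (128 and 252), chondrocyte-like (95 and 271), skeletal muscle-like (71 and 63), B cell-like (2674 and 1338), erythroid-like (1671 and 168), neutrophil-like (1200 and 177), and monocyte/macrophage-like (103 and 38). Below, the suffix is dropped, and each name stands for a class with such markers. The P-SSC class was named from Clec3b, Cd34, Ly6a, Mfap5, Pdgfra, Pi16, Dpp4, and Thy1, and joined an Mfap5-led and an Mfap4-led cluster. Prrx1, Lrp1, and CD13 were not on its list, and its match to the P-SSCs of the study was not tested. Erythroid markers also gave UMIs outside their class, at a summed 224 to 14148 CPM (UMIs per 1000000 UMIs of the class) in the stromal classes other than muscle against 122832 to 131006 CPM in erythroid cells. Neutrophil markers did likewise, at 33.2 to 17771 CPM in those stromal classes against 188651 to 203085 CPM in neutrophils. The highest value, 17771 CPM, was that of P-SSCs in library 1, against 33.2 CPM in library 2. The Lepr+ stromal class also differed between libraries, with its own markers at 18478 and 2649 CPM, osteoblast markers at 1581 and 10326 CPM, and Schwann cell markers at 62.5 and 1744 CPM. The part of such RNA in the results was not tested, but the comparisons that use these sums were also run without the P-SSC sum of library 1 or the Lepr+ stromal sum of library 2, a choice made after seeing the data.

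The members made up 2.56% of all UMIs in library 1 and 2.90% in library 2. Skeletal muscle stood apart, with 10.0% in library 1 and 13.6% in library 2 (11.8% ± 2.57, SD, n = 2). The other 8 classes lay between 2.00% and 3.50%. Erythroid cells came next, at 2.93% and 3.50% (3.21% ± 0.408, n = 2), followed by B cells at 2.41% and 2.81% (2.61% ± 0.284). Lepr+ stromal cells had 2.32% and 2.89% (2.61% ± 0.403), chondrocytes 2.42% and 2.60% (2.51% ± 0.122), osteoblasts 2.07% and 2.89% (2.48% ± 0.583), and P-SSCs 2.06% and 2.74% (2.40% ± 0.482). Neutrophils had 2.00% and 2.61% (2.31% ± 0.436) and monocytes/macrophages 2.08% and 2.23% (2.16% ± 0.103). Within each library, muscle exceeded erythroid cells by 7.08 and 10.1 percentage points, and erythroid cells exceeded B cells by 0.515 and 0.692. Below them the order was not stable, since B cells minus Lepr+ stromal cells gave 0.0883 and −0.0807, chondrocytes minus osteoblasts 0.355 and −0.297, and neutrophils minus monocytes/macrophages −0.0854 and 0.385. These differences were not tested, and the second place of erythroid cells also depended on the setting, as given below. By the median over cells in place of sums, neutrophils were the lowest of the 9 classes in both libraries. They had 1.11% and 1.38%, against 2.05% and 2.21% in monocytes/macrophages. Library 2 was above library 1 in each of the 9 classes, by 1.07 to 1.40 times, and the mitochondrially encoded subunits went the other way, at 0.416 to 0.889 times. The cause of this difference between libraries was not tested.

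**Figure D1:**
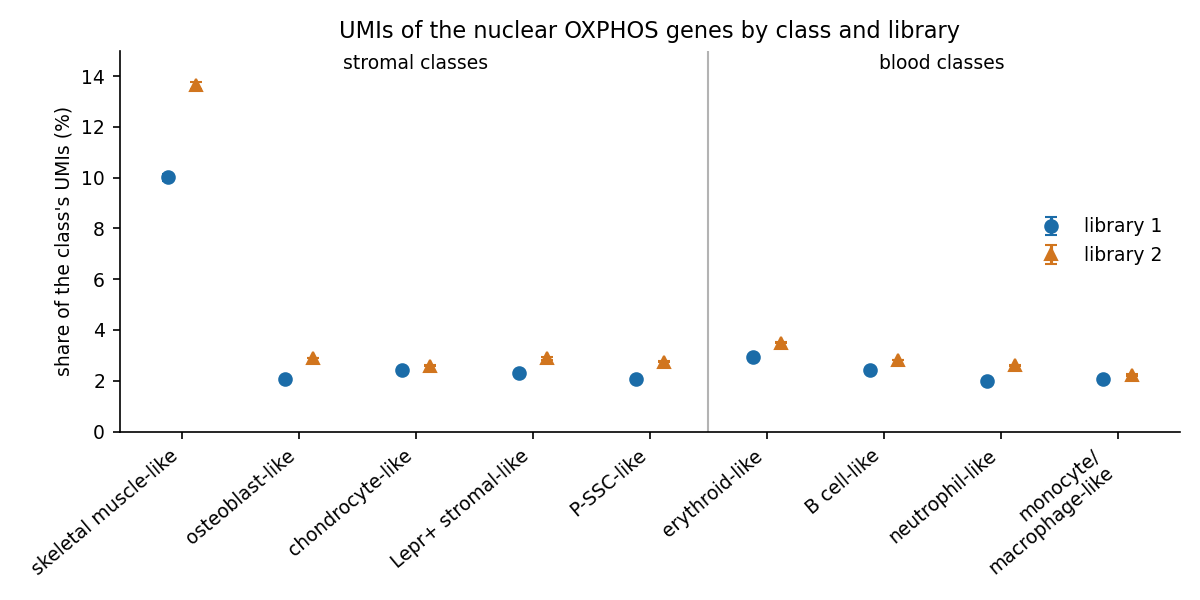
Shown is the share of UMIs from the 86 nuclear oxidative phosphorylation genes in percent for each cell class, with 1 point per library. Skeletal muscle lies at 10.0% and 13.6%, and the other 8 tested classes lie between 2.00% and 3.50%.

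The complexes kept similar parts of the module in the 9 classes. Complex I took 28.3% to 37.6% of the member UMIs, complex II 1.11% to 2.08%, complex III 8.72% to 11.5%, complex IV 21.5% to 27.3%, and complex V 28.3% to 33.7%. The most abundant members over all cells were Ndufa4 and Ndufb9 of those named for complex I, Sdhb and Sdhd of complex II, and Uqcrh and Uqcrq of complex III. They were Cox8a and Cox7c for complex IV, and Atp5e and Atp5b for complex V. Cox8a alone held 3.49% and 3.62% of all member UMIs. Counts are UMIs of the 3′ end of transcripts and do not grow with transcript length, so they were not divided by length. Among members with at least 10 UMIs in every class, 77 in library 1 and 74 in library 2, the share of the module varied across classes by a median of 1.09 and 1.04 on the log2 scale, and by under 2 for 71 and 70 of them. Atp5j2, a small ATP synthase subunit, was the most even, with a range of 0.35 and 0.43.

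A member was called an outlier in a class if its share of the module lay at least 2 on the log2 scale from its median over the 9 classes in both libraries. At least 10 UMIs also had to be observed (above the median) or expected (below it) in each library. Of the 86 members, 8 met this in 15 pairs of member and class. Cox4i2, Cox6a1, Cox6a2, Cox6b2, Cox7a1, Cox8a, and Cox8b belong to complex IV, and Ndufa4l2 is a paralog of Ndufa4, whose name places it in complex I although its protein associates with complex IV. Skeletal muscle had 5 of them, erythroid cells 4, and chondrocytes, Lepr+ stromal cells, and osteoblasts the same pair, Ndufa4l2 and Cox4i2. P-SSCs, B cells, neutrophils, and monocytes/macrophages had 0. In P-SSCs the shares of the same pair were also past the limit in both libraries, but the minimum of UMIs was not met in library 1. There Ndufa4l2 had 9 UMIs and Cox4i2 had 1, against 819 and 43 in library 2. A looser limit of 1 gave 15 members in 27 pairs. Just inside the limit of 2 was Cox4i2 in erythroid cells (−3.65 and −2.47), and just outside was Cox6b2 in osteoblasts (−1.57 and −1.89). The Cox4i2 value of library 2 used a floor of 3 counts for 0 UMIs. Of the erythroid outliers only Cox6b2 lay above its median, and Cox6a2, Cox7a1, and Cox4i2 lay below medians set by few UMIs. For Cox6a2 these were 2 UMIs in P-SSCs of library 1 and 2 in Lepr+ stromal cells of library 2. For Cox7a1 they were 2 and 1 in monocytes/macrophages, and for Cox4i2 15 and 9 in neutrophils.

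**Figure D2:**
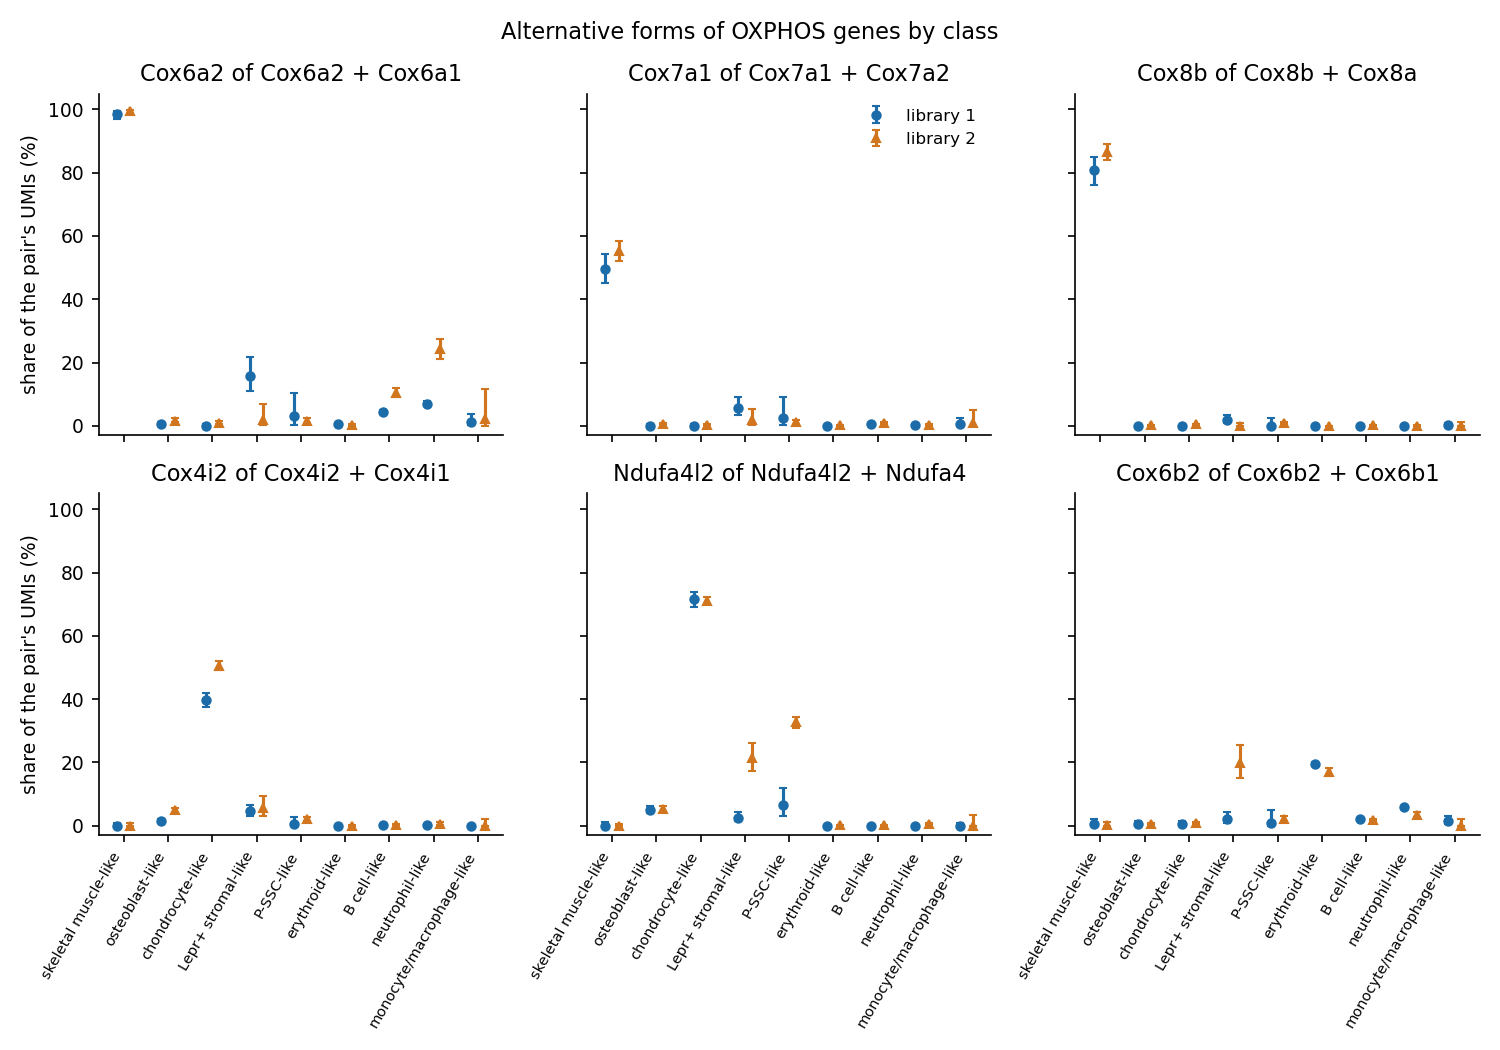
Each panel gives the UMIs of a tissue-restricted form as a percent of the UMIs of that form and its common partners, with a point per library and class. Cox6a2 reaches 98.6% and 99.6% of its pair in skeletal muscle, Ndufa4l2 71.5% and 71.1% in chondrocytes, and Cox6b2 19.6% and 17.0% in erythroid cells.

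Skeletal muscle was defined by 9 of 9 muscle markers, at 181569 and 178510 CPM, although muscle had been trimmed from the bones. Its cells were shallow, with a median of 1968 and 2552 UMIs. Cox8b, the muscle form of the small subunit COX8 (chr7:140898945-140900446 on GRCm38, minus strand), had 1319 CPM in library 1 and 2487 CPM in library 2 of muscle. In the other stromal classes it had 0 to 11.97 CPM and in the blood classes 0 to 1.30 CPM. The highest stromal value was that of Lepr+ stromal cells in library 1, where the muscle markers summed to 2077 CPM, and their part in it was not tested. The muscle libraries thus lay far above all others, and the difference from the other stromal classes was 9.65 on the log2 scale (SE 0.60, Benjamini-Hochberg adjusted p = 1.74e-09, edgeR quasi-likelihood). Cox8a, its ubiquitous partner (chr19:7215153-7217616), had 313 and 386 CPM in muscle and 566 to 1361 CPM elsewhere. The groups did not overlap, and the difference of −0.79 did not pass (SE 0.36, adjusted p = 0.106, same test). Cox8b was 80.9% of the pair in library 1 (exact binomial 95% interval 76.2% to 85.0%) and 86.6% in library 2 (83.9% to 88.9%). Such intervals cover counting error only.

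Cox7a1 and Cox7a2 are the muscle and the widespread form of another small subunit. Cox7a1 (chr7:30184144-30186078) had 1161 and 1983 CPM in muscle, 0 to 23.9 CPM in the other stromal classes, and 0.387 to 6.52 CPM in blood classes. It was higher in muscle by 8.89 (SE 0.47, Benjamini-Hochberg adjusted p = 5.06e-10, edgeR quasi-likelihood). Cox7a2 rose as well, by 1.92, so that Cox7a1 made up 49.7% and 55.3% of the pair. The promoters of these pairs are shown because each pair joins a muscle form and a widespread form of the same subunit. Each line is the 250 bases before the RefSeq start on GRCm38.p6, read along the gene's strand, with CpG dinucleotides in capitals. The regions are chr7:140900447-140900696 (minus strand) for Cox8b, chr19:7217617-7217866 (minus) for Cox8a, chr7:30183921-30184170 (plus) for Cox7a1, and chr9:79759854-79760103 (minus) for Cox7a2.
Cox8b: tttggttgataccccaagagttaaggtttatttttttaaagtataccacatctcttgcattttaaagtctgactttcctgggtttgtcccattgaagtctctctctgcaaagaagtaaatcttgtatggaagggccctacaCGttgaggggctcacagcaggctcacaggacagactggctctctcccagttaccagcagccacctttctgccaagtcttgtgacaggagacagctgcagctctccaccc
Cox8a: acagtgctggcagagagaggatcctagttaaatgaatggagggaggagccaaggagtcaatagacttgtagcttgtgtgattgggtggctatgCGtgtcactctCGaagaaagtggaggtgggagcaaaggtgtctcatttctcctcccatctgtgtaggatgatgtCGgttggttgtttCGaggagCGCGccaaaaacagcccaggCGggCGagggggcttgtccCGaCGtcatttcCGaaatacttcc
Cox7a1: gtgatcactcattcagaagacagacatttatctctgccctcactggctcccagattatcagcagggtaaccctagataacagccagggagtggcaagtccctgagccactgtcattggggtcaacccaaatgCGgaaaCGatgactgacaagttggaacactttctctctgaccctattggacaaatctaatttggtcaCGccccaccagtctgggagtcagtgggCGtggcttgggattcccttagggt
Cox7a2: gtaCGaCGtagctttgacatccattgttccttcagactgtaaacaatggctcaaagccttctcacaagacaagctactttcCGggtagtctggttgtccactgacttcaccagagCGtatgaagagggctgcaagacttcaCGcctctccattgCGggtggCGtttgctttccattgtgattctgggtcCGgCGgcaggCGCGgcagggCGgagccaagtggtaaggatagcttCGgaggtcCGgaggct
The muscle forms held 1 and 4 CpG dinucleotides and their partners 11 and 14. Of the 86 members, 68 matched a RefSeq promoter, with a median of 14 CpG and 56.2% GC, against 6 CpG and 52% GC for all 27025 promoters. Cox8b had the fewest CpG of the 68. Short motifs were searched on both strands. The letters TGCGCANGC, as bound by NRF1, a regulator of respiratory genes, stood in 9 members (13.2%) and 3.58% of all promoters. The letters CCGGAAG of the ETS family stood in 11 members (16.2%) and 7.05% of all promoters. The GATA letters AGATAA stood in 6 members (8.82%), Cox7a1 among them, and in 10.3% of all. The E-box letters CAGCTG, as bound by muscle regulators, stood in 6 members (8.82%), Cox8b among them, and in 12.8% of all. For MEF2 the letters CTATTTATA stood in 0 members and 0.392% of all, and for YY1 the letters AAGATGGCG stood in 0 members and 0.607% of all. Longer forms of the NRF1 and MEF2 motifs, searched first, stood in 14 members (20.6%) and 1 member (1.47%), against 5.09% and 3.23% of all promoters. The NRF1 and ETS letters printed here were found in none of the 4 promoters shown. A match is a description and not a binding site.

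Cox6a2 (chr7:128205435-128206387), the muscle form of subunit VIa, had 2088 and 2771 CPM in muscle and 0 to 41.2 CPM in the other stromal classes. The difference was 9.09 (SE 0.58, Benjamini-Hochberg adjusted p = 4.05e-09, edgeR quasi-likelihood). Cox6a1 (chr5:115345642-115348981), its ubiquitous partner, had 29.8 and 11.4 CPM in muscle, from 6 and 3 UMIs, and 161 to 430 CPM in every other class and library. The difference was −3.59 (SE 0.40, adjusted p = 5.15e-06, same test), and the pair was almost fully exchanged, with Cox6a2 at 98.6% (interval 97.0% to 99.5%) and 99.6% (98.8% to 99.9%). Cox4i2 and Ndufa4l2 had 0 UMIs in muscle. Against the mean of the other stromal classes and with a floor of 3 counts per library, this was at least 10.5-fold and 12.6-fold lower for Cox4i2 and at least 14.7-fold and 34.8-fold lower for Ndufa4l2. Chondrocytes, with by far the most of both genes, led that mean. The floor was 14.9 and 11.4 CPM. In library 1 Cox4i2 lay under it in P-SSCs and osteoblasts, so 0 UMIs could not place muscle below these classes there.

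Of the 84 tested members, 79 were higher and 3 lower in muscle than in the other stromal classes (edgeR quasi-likelihood, adjusted p under 0.05), where 11.7% of all genes tested were higher and 20.6% lower. The median member difference was 2.56, against −1.42 for all genes. The 3 lower members were Cox6a1, Cox4i2, and Ndufa4l2, and Cox8a and Cox6b2 did not pass. By complex, 38 of 39 genes of complex I rose, 4 of 4 of complex II, 8 of 8 of complex III, 12 of 16 of complex IV, and 17 of 17 of complex V. The complex II genes rose by 1.43 (Sdha, the flavoprotein), 2.93 (Sdhb, the iron-sulfur subunit), 2.95 (Sdhc), and 2.71 (Sdhd), the last 2 being membrane anchors. Uqcrfs1, the Rieske iron-sulfur protein of complex III, rose by 3.82 (SE 0.25, adjusted p = 2.32e-08, same test). Atp5g1, 1 of 3 genes for the identical subunit c that forms the rotor ring of the ATP synthase, had 4817 and 5254 CPM in muscle, 888 and 1096 CPM in erythroid cells, and 217 to 675 CPM elsewhere. It rose in muscle by 3.84 (adjusted p = 6.13e-09, same test), its sister genes by 1.59 (Atp5g2) and 2.38 (Atp5g3), and it held 73.2% and 64.8% of the 3 genes' UMIs in muscle against 23.0% to 39.2% in classes other than muscle and erythroid cells.

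**Figure D3:**
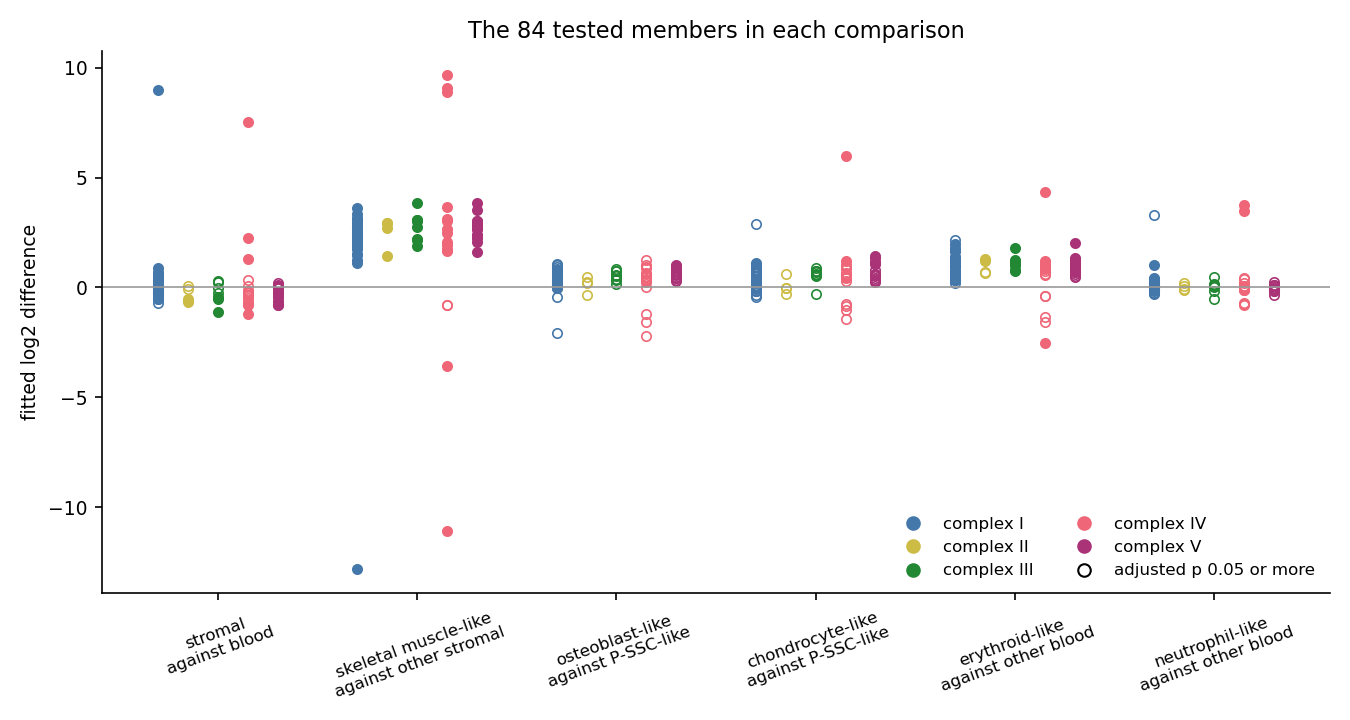
Each point is 1 of the 84 tested members, placed by its log2 difference in each of the 6 comparisons, and filled points passed the test. In skeletal muscle 79 members passed above 0 and 3 below (11.7% and 20.6% of all genes), and in erythroid cells 56 and 1 (24.2% and 17.3%). Against P-SSCs 1 passed in osteoblasts and 6 in chondrocytes, all above 0, where 6.11% and 7.71% of all genes were higher.

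The subunits encoded in the mitochondria themselves did not share the rise. Their 13 genes made up 0.243% and 0.106% of UMIs in muscle and 0.993% to 4.10% in the other classes. Nuclear members thus had 41.2 and 129 UMIs per mitochondrially encoded UMI in muscle, and 0.588 to 2.91 elsewhere. For mt-Co1, the catalytic subunit of complex IV, muscle had 288 and 102 CPM, and the other classes 2282 to 6609 CPM. Of the 13 genes 12 fell in muscle, with a median of −3.56, and mt-Nd6 did not pass. The barcodes that the filters removed had other values. Among barcodes with at least 500 UMIs and 1% or more of them from the muscle markers, 142 and 106, the limit alone removed 2 and 0. A further 53 and 35 had under 500 genes, and their mitochondrial share was 2.72% and 31.2%, against 1.35% and 0.541% in the 87 and 71 such barcodes that were kept. The member share of the barcodes under 500 genes was 9.66% and 7.61%, also above every class other than muscle.

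**Figure D4:**
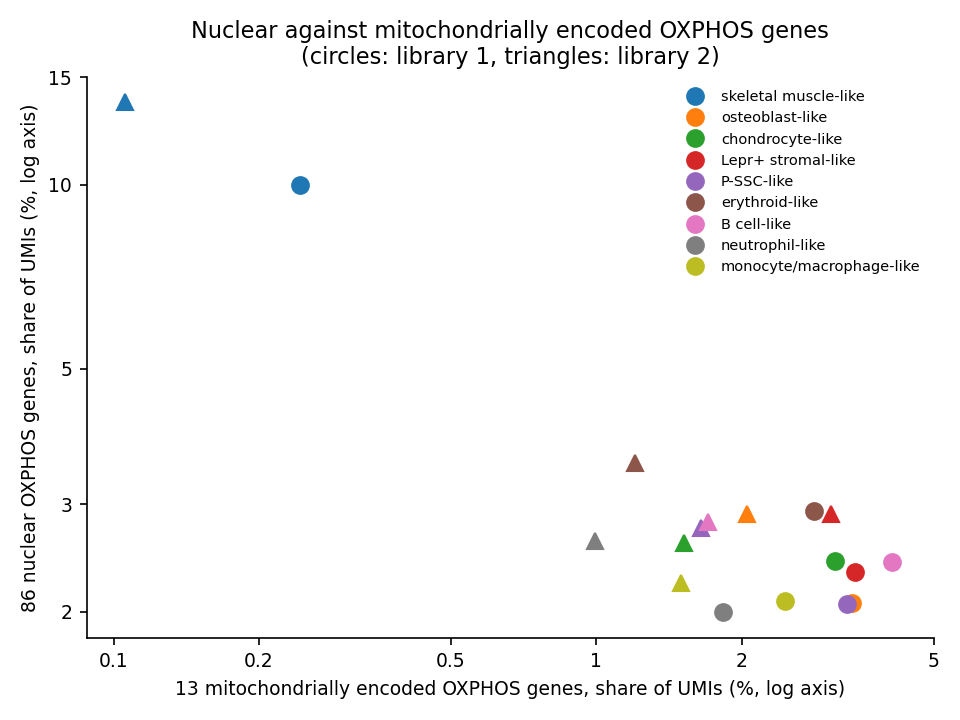
The x axis gives the share of UMIs from the 13 mitochondrially encoded subunits and the y axis that from the nuclear members, both in percent, with a point per class and library. Skeletal muscle sits alone at 0.243% and 0.106% on the x axis and 10.0% and 13.6% on the y axis.

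Other mitochondrial genes were read from fixed lists. In muscle 27 of 43 tested assembly factors, 11 of 13 genes of the TCA cycle, and 58 of 78 genes of the mitochondrial ribosome rose, with medians of 1.62, 2.02, and 1.33, and 0 fell. Of 12 carriers and energy transfer genes 8 rose and 2 fell. Slc25a4, the ADP/ATP carrier of muscle and heart, had 7689 and 8509 CPM in muscle and 68.1 to 665 CPM elsewhere and rose by 4.37, and Ckmt2, the mitochondrial creatine kinase of muscle, rose by 9.92. Slc25a5, the carrier of dividing cells, fell by 1.21. Of 12 regulators of mitochondrial biogenesis 5 rose and 2 fell. Ppargc1a, a coactivator of respiratory genes, had 14.9 and 18.9 CPM in muscle and 0 to 9.20 CPM elsewhere and rose by 6.13. These values rest on few UMIs, since 3 counts in muscle stand for 14.9 CPM in library 1 and 11.4 CPM in library 2. Tfam, which packs and transcribes mitochondrial DNA, rose by 1.45. The cytosolic ribosome list, in contrast, had 3 of 92 genes higher and 4 lower.

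In chondrocytes the module as a whole was close to that of other stromal cells, and 2 members stood out. Ndufa4l2 (chr10:127514967-127517154), known as induced under low oxygen, had 796 and 1020 CPM in chondrocytes. It had 34.2 and 295 CPM in P-SSCs, 18.6 and 227 CPM in Lepr+ stromal cells, and 23.7 and 38.8 CPM in osteoblasts, and at most 4.01 CPM in any blood class. Cox4i2 (chr2:152754173-152765037), the form of subunit IV known from lung and low oxygen, had 571 and 485 CPM in chondrocytes, 3.80 and 15.5 CPM in P-SSCs, 38.6 and 39.9 CPM in Lepr+ stromal cells, 11.5 and 31.4 CPM in osteoblasts, and at most 3.01 CPM in blood classes. Both genes were thus highest in chondrocytes in both libraries among the tested classes. Ndufa4l2 held 71.5% and 71.1% of the UMIs of itself and Ndufa4 there, and Cox4i2 39.7% and 50.5% of those of itself and Cox4i1. The 2 genes differed between chondrocyte clusters. The cluster led by Fxyd2, Col9a3, and Cnmd had 1190 and 1155 CPM of Ndufa4l2 and 830 and 558 CPM of Cox4i2. The cluster led by Col10a1, the collagen of hypertrophic cartilage, had 92.4 and 141 CPM and 108 and 164 CPM. A cluster led by Msmp and Prg4, the lubricin gene of joint surfaces, was present in library 2 alone, with 1036 CPM of Ndufa4l2 and 387 CPM of Cox4i2.

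Against P-SSCs, 6 members were higher in chondrocytes and 0 lower (edgeR quasi-likelihood, adjusted p under 0.05), where 7.71% of genes tested were higher and 8.39% lower. DESeq2 gave 7 and 0, where 6.9% and 9.52% of all genes were higher and lower. At an unadjusted p under 0.05 the counts were 20 and 0, and the share of all genes at that limit was not counted. Cox4i2 was higher by 5.99 (SE 0.74, Benjamini-Hochberg adjusted p = 0.000189, edgeR quasi-likelihood). The others were Atp5b, the catalytic beta subunit (1.42), Cox7a2 (1.201), Ndufab1, the acyl carrier protein of complex I (1.11), Atp5f1 of the ATP synthase stalk (1.09), and Atp5g1 (1.06). Ndufa4l2 differed by 2.89 and did not pass (SE 1.35, adjusted p = 0.173, same test). The median member was 0.54 higher, against 0.00 for all genes. Osteoblasts had 1 member higher than P-SSCs and 0 lower (6.11% and 8.15% of genes tested). DESeq2 gave 4 and 0, where 6.07% and 8.64% of all genes were higher and lower. At an unadjusted p under 0.05 there were 15 and 0, again without a count over all genes. At the adjusted limit the count higher was 0 with RLE scaling, without a filter on low counts, and at a clustering resolution of 1.2 (5.2%, 3.65%, and 5.64% of all genes). The member was Atp5a1, the alpha subunit of the ATP synthase head, by 0.87 (SE 0.27, adjusted p = 0.0439, same test), and the median member was 0.46 higher against 0.04 for all genes. With the library as a replicate block, 27 members were higher in chondrocytes and 19 in osteoblasts, and 0 were lower in both, where 12.3% and 10.2% of all genes tested were higher. Library 1 held 20 P-SSCs, so that the P-SSC sums of that library rest on 263176 UMIs. Without that sum, 1 member was higher in chondrocytes and 0 in osteoblasts (3.79% and 3.38% of all genes).

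Erythroid cells had the second-highest module share of summed UMIs at the main clustering. At resolutions 0.4 and 1.2, monocytes/macrophages had 2.47% in library 1, below erythroid cells at 2.92%, but 3.56% in library 2, above erythroid cells at 3.50%. The class was then a different set of cells, with 243 and 74 at 0.4 and 242 and 74 at 1.2, against 103 and 38. Neutrophils went from 1200 and 177 cells to 1042 and 141 at 0.4 and 1061 and 141 at 1.2. By the median over cells at the main clustering, erythroid cells had 2.26% and 3.03%, against 2.38% and 2.38% in chondrocytes. Against the other blood classes 56 members were higher and 1 lower (edgeR quasi-likelihood, adjusted p under 0.05), where 24.2% of genes tested were higher and 17.3% lower. The count higher was 36 with DESeq2, 33 with RLE scaling, and 29 at clustering resolutions of 0.4 and 1.2 (14.8%, 15.5%, 17.0%, and 17.0% of all genes). The median member was 0.94 higher against 0.26 for all genes. It was 0.54 higher with DESeq2 and with RLE scaling, and 0.64 and 0.63 higher at resolutions 0.4 and 1.2. The median over all genes was not taken in these settings. By complex, 26 of 39 genes of complex I rose, 2 of 4 of complex II, 8 of 8 of complex III, 8 of 16 of complex IV, and 12 of 17 of complex V. Cox6b2 (chr7:4751792-4753094), a form of subunit VIb known from testis, had 150 and 169 CPM in erythroid cells, 25.7 and 22.4 CPM in neutrophils, 9.48 and 10.4 CPM in B cells, and 7.50 and 0 CPM in monocytes/macrophages. It rose by 4.36 (SE 0.57, Benjamini-Hochberg adjusted p = 2.15e-05, edgeR quasi-likelihood), and made up 19.6% and 17.0% of its pair with Cox6b1. A single stromal value came close, 147 CPM in Lepr+ stromal cells of library 2, from 48 UMIs, against 9.31 CPM in library 1.

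Further members that rose most in erythroid cells were Atp5g1 by 2.04 (Benjamini-Hochberg adjusted p = 1.99e-05, edgeR quasi-likelihood), Ndufa5 by 1.98, Uqcr11 by 1.79, and Ndufab1 by 1.78. Atp5g1 held 47.1% and 46.0% of the subunit c UMIs. The lower member was Cox6a2 (−2.53, adjusted p = 0.0213, same test), with 1.91 and 0.729 CPM, and with the replicate block 2 members were lower (20.6% of all genes). Without the Ctsg- and Mpo-led neutrophil cluster described below, a choice made after seeing the data, 0 members were lower (18.9% of all genes). Monocytes/macrophages had only 2 and 1 UMIs of Cox6a2. Cells with plasmacytoid dendritic markers held much of the Cox6a2 in blood clusters, as given below. Other lists rose alongside, with 25 of 43 assembly factors, 9 of 13 TCA cycle genes, 66 of 78 mitochondrial ribosome genes, and 59 of 92 cytosolic ribosome genes higher. None of the 13 mitochondrially encoded genes passed, also at an unadjusted p under 0.05 (0 higher and 0 lower). Still, all 13 had differences above 0, with a median of 0.44 against 0.26 for all genes.

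Within the erythroid cells the module fell along the clusters with rising globin. The cluster led by Car1, of early erythroid cells, had a member share of 3.54% and 4.26%, with 0.376% and 0.0586% globin UMIs. The Hebp1-led cluster had 3.38% and 3.99%, the Hemgn-led cluster 1.90% and 1.96%, and the Bpgm-led cluster 0.448% and 0.549%, where globin made up 69.6% and 69.0% of UMIs. The highest and lowest cluster differed by 7.92 and 7.77 times. Globin UMIs alone lower any other share, and without them the clusters went from 3.56% and 4.26% to 1.47% and 1.77%, a difference of 2.41 times in both libraries. Median UMIs per cell went from 57357 and 55898 to 8970 and 8432. These clusters were built from the same cells, and the order is a description without a test.

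**Figure D5:**
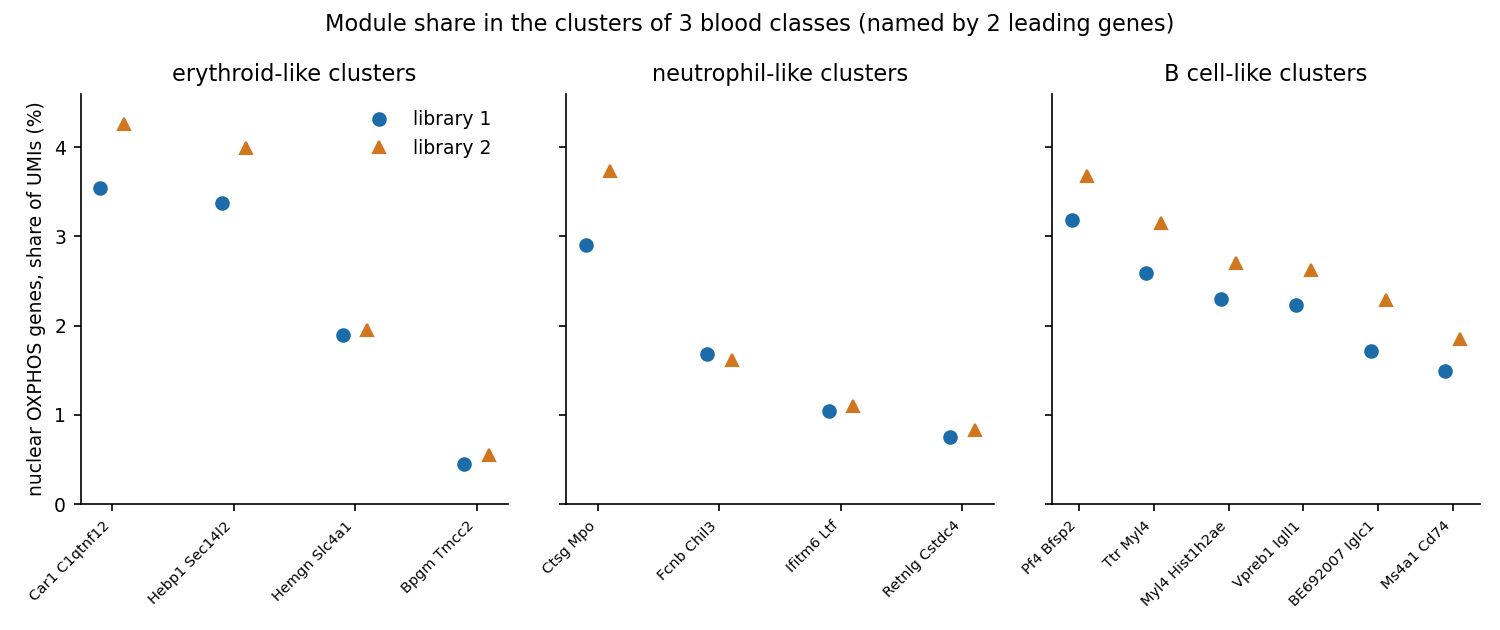
Each point is a cluster of a blood class in 1 library, with the member share of UMIs in percent on the y axis. The share goes from 3.54% and 4.26% in the Car1-led to 0.448% and 0.549% in the Bpgm-led erythroid cluster, and from 2.90% and 3.73% to 0.753% and 0.824% in neutrophils.

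Neutrophil clusters showed a like order. The cluster led by Ctsg and Mpo, granule genes of immature cells, had 2.90% and 3.73%, the Fcnb-led cluster 1.68% and 1.62%, the cluster led by Ltf and Ly6g 1.04% and 1.10%, and the Retnlg-led cluster 0.753% and 0.824%. Without the 20 most abundant other genes of each cluster, the Ctsg-led cluster had 3.33% and 4.28% and the Retnlg-led cluster 1.41% and 1.52%. Their median UMIs per cell were 24232 and 20040 against 4464 and 3564. This order was not tested either. The Ctsg-led cluster had 259 of 1200 and 59 of 177 neutrophils, but 233273 of 383859 and 59861 of 78216 of their member UMIs. B cells ranged from 3.19% and 3.68% in a cluster led by Pf4, Bfsp2, and Igll1 to 1.49% and 1.84% in the cluster led by Ms4a1, the CD20 gene of later B cells. Pf4 led through library 1, since the megakaryocyte markers that include it summed to 106 CPM in B cells there and 0.119 CPM in library 2. Against the other blood classes, 3 members were higher in neutrophils and 0 lower (edgeR quasi-likelihood, adjusted p under 0.05), where 10.4% of genes tested were higher and 1.1% lower. DESeq2 gave 4 and 1, where 10.4% and 1.66% of all genes were higher and lower, and with the replicate block 1 was lower (2.89% of all genes). The unadjusted counts were 3 and 1, without a count over all genes. At a clustering resolution of 0.4, 0 members were higher at the adjusted limit (11.1% of all genes). Without the Ctsg- and Mpo-led cluster, 8 members were lower, as were 9.57% of all genes. The higher members were Cox4i2 by 3.77, from 15 and 9 UMIs, Cox6a2 by 3.46 (Benjamini-Hochberg adjusted p = 0.000964, edgeR quasi-likelihood), and Ndufv3, an accessory subunit of complex I, by 1.02. The neutrophil class also held cells with plasmacytoid dendritic markers, which carried most of its Cox6a2 in library 2, as given below. For Cox4i2, neutrophils of library 1 had 15 of 19221600 UMIs, no more than B cells with 18 of 19822600. In library 2 both had 9, of 2993050 and 8429880. Erythroid cells had 4 and 0, and monocytes/macrophages 0 and 0 in sums of only 932972 and 273870 UMIs.

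Cox6a2 in blood cells was not spread evenly. It had 15.4 and 63.5 CPM in neutrophils and 10.9 and 24.0 CPM in B cells, and at most 3.65 CPM in monocytes/macrophages and erythroid cells. Cells with Siglech and at least 3 markers in all of plasmacytoid dendritic cells numbered 40 and 9, of which 31 and 9 had Cox6a2. These held 55.7% and 38.6% of all Cox6a2 UMIs in blood clusters, at 598 and 2263 CPM, and 27 and 9 of them lay in the Ctsg- and Mpo-led neutrophil cluster. In library 2 the marked cells, all in that cluster, held 175 Cox6a2 UMIs, and the whole neutrophil class had 190. In library 1 the 40 marked cells held 381, from several clusters, and the neutrophil class had 296. The part of these marked cells in the neutrophil difference, and in the lower Cox6a2 of erythroid cells, was not tested. Cox6a2 had 1.58 and 1.11 UMIs per Cox8b UMI in muscle, 42.3 and 190 in neutrophils, and 10.9 and 18.4 in B cells. The Cox8b counts behind these ratios were 266 and 657 in muscle, but only 7 and 1 in neutrophils and 20 and 11 in B cells.

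The 4 stromal classes other than muscle were also set against the 4 blood classes. Higher in stromal classes were 11 members and lower 19 (edgeR quasi-likelihood, adjusted p under 0.05), where 33.8% of genes tested were higher and 23.9% lower. The median member was −0.11 against 0.22 for all genes. These counts moved with the clustering, to 4 higher and 46 lower at resolution 0.4 and 4 higher and 34 lower at 1.2. The stromal side then held further classes. These were osteogenic progenitor-like cells at 0.4 (29 and 73 cells) and at 1.2 (36 and 57), and tenocyte-like cells at 0.4 (12 and 195). Of all genes, 31.1% and 29.0% were higher and 28.5% and 31.7% lower at these resolutions. Without the Lepr+ stromal sum of library 2 the members higher and lower were 9 and 19 (30.5% and 21.7% of all genes). Ndufa4l2 was higher by 9.005 (SE 1.08, Benjamini-Hochberg adjusted p = 9.15e-06, edgeR quasi-likelihood) and Cox4i2 by 7.52 (SE 0.51, adjusted p = 1.83e-08, same test). Cox7a1 followed with 1.31, Ndufv3 with 0.89, and Ndufa13 with 0.66. Cox8b passed with 2.25, but was −0.15 in library 1 and 1.88 in library 2. The muscle markers summed to 30.4 to 2077 CPM in these stromal classes and to 24.4 to 167 CPM in the blood classes, and their part in the differences of Cox7a1 and Cox8b was not tested. Of the lower members, Uqcrfs1 (−1.10, adjusted p = 0.000134, same test) and Atp5a1 (−0.81), Cox5a (−0.79), Atp5f1 (−0.78), and Cox7a2l (−0.77) led. Cox7a2l, a factor that joins complexes III and IV into supercomplexes, was lower in both libraries by 0.77 and 0.79. Cox6b2 was lower by 1.21, with −2.49 in library 1 and 0.14 in library 2. By complex, 8 of 39 genes of complex I were higher and 5 lower, while 2 of 4 of complex II, 3 of 8 of complex III, and 5 of 17 of complex V were lower with 0 higher, and complex IV had 3 higher and 4 lower of 16. The cytosolic ribosome list had 55 of 92 genes lower and 3 higher in stromal classes.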

How the data were processed

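Both samples were run on the 10x Chromium 3′ v3.1 kit. The authors demultiplexed and aligned the reads and deposited UMI counts for each gene in each barcode, without normalization. The submitters' processing notes name Cell Ranger 6.1.2 and mm10. Gene positions are from GENCODE M21 on GRCm38, and promoters from RefSeq on GRCm38.p6. The members and gene lists were chosen with earlier results of these data known.

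The libraries were integrated in Seurat 5.3.0 (R 4.3.3) by canonical correlation (3000 variable genes without members and mitochondrial genes, 15 components, Louvain resolution 0.8), and the stromal clusters were clustered again. A cluster was named if at least 3 markers of a class were at least 1 higher on the log2 scale than in other cells, with 10 CPM added, in 20% or more of its cells. The classes were built from the same cells that were compared. Unnamed clusters held 27 and 75 stromal and 184 and 49 blood cells, and tenocyte-like (2 and 97) and smooth muscle-like cells (4 and 20) were too few to test. Doublets were not removed. Scrublet marked 1.98% of library 1, but 0.0346% of library 2, where it did not work.

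UMIs were summed per class and library, filtered (filterByExpr), normalized (TMM), and fitted in 1 model with edgeR 4.0.16 (glmQLFTest, threshold 0.05 over all 14064 genes), every class weighing the same. The SE is the log2 difference over the square root of F. Log2 differences of single libraries were taken from log2 CPM with a prior count of 2. On simulated data with 200 genes changed, 34.5% of those changed by 2 on the log2 scale were recovered for muscle, 69% for erythroid cells, 33% for osteoblasts, and 32.5% for chondrocytes. Of genes changed by 1, the parts recovered were 3.5%, 12%, 1%, and 3%, in the same order. Of the simulated calls, 9.52%, 3.57%, 2.86%, and 5.33% were false. Same-numbered sums come from the same library, and their deviations from class means correlated at 0.0485 to 0.476 over 36 pairs of classes (median 0.177). Named members are the tissue-restricted forms with their partners, up to 5 per comparison and direction past the threshold and alike in both libraries, outliers with at least 10 observed or expected UMIs, the 2 most abundant of each complex, and complex II. Others, such as Atp5j2, Cox8b and Cox6b2 among stromal against blood, and leading genes of clusters, were named after their values were seen. Alternatives were DESeq2 1.42.0, RLE, no filter, a replicate block, each library left out, other resolutions, a 5% mitochondrial limit, the top 5% of doublet scores left out, and, chosen after seeing the data, subsets of clusters and single class sums left out. The printed NRF1 and MEF2 letters replaced longer forms searched first.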

Additional observations from a re-analysis of the deposited data

Results flagged for a closer look

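The gene list holds reporter features outside the comparisons, although the labels give WT mice. EGFP had UMIs in 170 kept cells of library 2 and in 0 of library 1, at 222 and 0 CPM. tdTomato had UMIs in 1027 cells of library 1 and 846 of library 2, at 16.1 and 150 CPM.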

How the results depend on the processing

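Muscle kept 79 members higher and 3 lower within 1.5 times under each alternative run. In the other comparisons 36 of 96 alternative counts moved by more. Percentages in brackets give the share of all genes tested in the same direction and setting. Members higher in stromal than blood classes (11, 33.8%) were 17 with DESeq2 (36.8%), 7 without a filter on low counts (20.4%), and 4 at resolutions 0.4 and 1.2 (31.1% and 29.0%). Those lower (19, 23.9%) were 46 and 34 at these resolutions (28.5% and 31.7%). At these resolutions the stromal classes, also those set against muscle, included further ones, as given above. In osteoblasts against P-SSCs, members higher (1, 6.11%) were 4 with DESeq2 (6.07%), 0 with RLE (5.2%), 0 without a filter (3.65%), and 0 at resolution 1.2 (5.64%). They were 2 with a 5% mitochondrial limit (5.95%) and 2 without the top 5% of doublet scores (6.9%), where 1 was lower (9.38%). Without the Mepe-led cluster, a choice made after seeing the data, they were 3 (6.34%). In chondrocytes (6, 7.71%) they were 3 with RLE (6.14%), 2 without a filter (4.24%), and 3 at resolution 1.2 (7.16%). Without the P-SSC sum of library 1, chosen after seeing the data, they were 0 in osteoblasts (3.38%) and 1 in chondrocytes (3.79%). In erythroid cells, members higher (56, 24.2%) were 36 with DESeq2 (14.8%), 33 with RLE (15.5%), and 29 at resolutions 0.4 and 1.2 (17.0% at both). Members lower (1, 17.3%) were 4 with DESeq2 (23.9%), 3 with RLE (22.5%), and 2 at these resolutions (17.8% and 18.7%). With only the clusters of low globin, chosen after seeing the data, they were 2 (19.0%). In neutrophils, members higher (3, 10.4%) were 0 at resolution 0.4 (11.1%). Members lower (0, 1.1%) were 1 with DESeq2 (1.66%), 1 without the top doublet scores (2.0%), and 8 without the Ctsg- and Mpo-led cluster (9.57%), also chosen later.

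With the library as a replicate block, which pairs the sums, members higher were 19 in osteoblasts and 27 in chondrocytes (10.2% and 12.3% of all genes). Members lower were 2 in erythroid cells and 1 in neutrophils (20.6% and 2.89% of all genes). The other counts stayed within 1.5 times under the block. The causes of these moves were not tested. Leaving out a library left a single sum per class and no spread between sums, so these are values without a test, and the median member ranged from −0.22 to −0.04 for stromal against blood, 2.47 to 2.64 for muscle, 0.40 to 0.65 for osteoblasts, 0.20 to 0.95 for chondrocytes, 0.92 to 0.97 for erythroid cells, and −0.16 to 0.18 for neutrophils. With both libraries kept, other settings moved some medians past these ranges. The erythroid median went from 0.94 to 0.54 with DESeq2 and with RLE, and that of stromal against blood from −0.11 to −0.46 at resolution 0.4. Of 99 alternative class shares, 16 moved by more than 1 SD, 8 of them when the 20 most abundant genes were left out. The 99 include 9 shares without library 1 and 9 without library 2. These could not move, since the SD came from the same 2 values. The same 8 outlier members were found at both other resolutions, with the 5% mitochondrial limit, and without the top doublet scores. The limits are 2 libraries, few P-SSCs in library 1, and shallow muscle cells.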

Other observations

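Tenocyte-like and smooth muscle-like cells, too few in library 1 for a test, also carried much Ndufa4l2 and Cox4i2. In tenocyte-like cells Ndufa4l2 had 2137 CPM in the 2 cells of library 1 and 1331 CPM in the 97 cells of library 2, which made 90.6% and 74.4% of its pair with Ndufa4. Cox4i2 had 0 and 158 CPM there. In smooth muscle-like cells Ndufa4l2 had 1095 CPM in 4 cells and 1666 CPM in 20 cells, or 100% and 94.3% of the pair, from 26 and 214 UMIs. Cox4i2 had 589 and 498 CPM there, or 51.9% and 35.6% of its pair with Cox4i1. The module share was 1.97% and 2.65% in tenocyte-like and 1.57% and 3.77% in smooth muscle-like cells.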
